A study of Mus musculus with 2 samples.

Results

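Filaggrin-type proteins and the enzymes that process them were followed in the skin of newborn mice with and without *Pnpla1*. The 10 genes were *Flg*, *Flg2*, *Hrnr* and *Rptn*, which encode structural proteins of the granular layer, and *Casp14*, *Asprv1*, *Blmh*, *Padi1*, *Padi3* and *Padi4*, which encode proteases and arginine deiminases. They were taken by name from the 30132 genes of the array, and *Flg*, which the array lists under transcript identifiers, by its description. The 30132 include probes without a gene name, each counted under its own identifier. Each of the 10 genes followed had a probe, 13 probes in all, and all 13 were well above background on both arrays with no saturated or flagged spot.

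Total RNA from the skin of *Pnpla1*+/+ and *Pnpla1*-/- pups at postnatal day 0, both on the C57BL/6N strain background, was hybridized with the dye Cy3 to Agilent mouse arrays. Each genotype had 1 array, made from the pooled RNA of 6 animals. The *Pnpla1*-/- pups came from heterozygous parents and were homozygous for a targeted allele, a knockout-first tm1a construct from which flippase had excised the reporter and neomycin cassettes. The *Pnpla1*+/+ pups were their wild-type littermates. The labels of the samples give the tissue as skin, while the description of the series speaks of epidermis. Markers of fibroblasts and of hair follicles were well above background on both arrays, and in such bulk RNA fewer cells of a type and less RNA per cell cannot be told apart. With 1 array per genotype no test between genotypes was possible, and each value describes these 2 pools. Of the spots other than controls, 71.7% were well above background in *Pnpla1*+/+ and 73.3% in *Pnpla1*-/- skin. The probe of the targeted gene, *Pnpla1* (mm9 chr17:29026908-29026967), read 579 in wild-type skin and 114 in the knockout, a log2 difference of −2.07 that matches the labels in direction.

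Profilaggrin, the product of *Flg*, is a long chain of filaggrin repeats stored in the keratohyalin granules of granular keratinocytes. As these cells cornify it is dephosphorylated and cut into filaggrin, which bundles keratin filaments, and deiminases then turn arginine into citrulline, which loosens filaggrin from keratin so that proteases can break it down to the free amino acids that hold water in the *stratum corneum*. *Flg2*, *Hrnr* and *Rptn* lie beside *Flg* in the epidermal differentiation complex and encode proteins of the same build, with a calcium-binding domain like that of the S100 proteins followed by repeats.

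Intensities below are those deposited. For the members' main probes and the other *Flg* probes they are followed by the error that the scanner software gave for the spot. Each array was divided by its 75th percentile (2108 for *Pnpla1*+/+ and 1734 for *Pnpla1*-/- skin), and a difference is the log2 value of the knockout less that of the wild type. The spread of repeated spots gave a difference a technical SD of 0.09, the median of 385 probes printed at least 8 times. For the 97 of them that were well above background on both arrays but under an intensity of 500 it was 0.15. The technical SD was taken within each array, so it leaves out the variation between mice, labellings and hybridizations. The error of the scanner software carried over to 0.20 for most of the 13 differences and to 0.27 for the dimmest probe. A gene with several probes was represented by its brightest one.

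The probes of the filaggrin-type genes are given below because the differences rest on 1 probe each for *Flg2*, *Hrnr* and *Rptn*, and on 3 probes that differ for *Flg*. The *Blmh* probe is added because it shared the longest stretch with another gene's probe. Each probe has 60 bases, and capitals mark the longest run that it shares, on either strand, with any other probe of the array. On mm9 they lie on the + strand at chr3:93024641-93024700 (*Flg2*), chr3:93097529-93097588, chr3:93083694-93083753 and chr3:93096241-93096300 (*Flg*, from the brightest to the dimmest), chr3:93127620-93127679 (*Hrnr*), chr3:93202664-93202723 (*Rptn*) and chr11:76800313-76800371 (*Blmh*), as the files give them.
Flg2: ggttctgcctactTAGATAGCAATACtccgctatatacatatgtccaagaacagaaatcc
Flg, brightest probe: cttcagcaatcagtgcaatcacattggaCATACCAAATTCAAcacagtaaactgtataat
Flg, second probe: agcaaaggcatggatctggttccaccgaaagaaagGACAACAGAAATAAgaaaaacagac
Flg, dimmest probe: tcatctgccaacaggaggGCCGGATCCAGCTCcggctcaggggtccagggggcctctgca
Hrnr: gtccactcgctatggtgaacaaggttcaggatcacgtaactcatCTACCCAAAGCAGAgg
Rptn: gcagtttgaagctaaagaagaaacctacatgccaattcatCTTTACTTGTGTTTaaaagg
Blmh: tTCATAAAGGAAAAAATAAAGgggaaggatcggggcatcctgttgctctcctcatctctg
Over all 13 probes the longest shared run had between 13 and 20 bases, and none of these runs was shared with a probe of another of the 10 genes. The 20 bases of the *Blmh* probe were shared with a probe at background on both arrays, which read 5.01 in wild-type skin and 4.45 in the knockout.

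The 4 filaggrin-type genes went in opposite directions. *Flg2* was far lower and *Rptn* far higher in *Pnpla1*-/- skin, while *Flg* and *Hrnr* stayed under 2-fold. *Flg2*, the filaggrin family member 2 gene, read 20467 ± 2047 in wild-type skin and 198 ± 20.8 in the knockout, a difference of −6.41, or 84.9-fold lower after scaling. Among the 20679 genes measured on both arrays, 1 had a lower difference. *Rptn* encodes repetin, a protein of the cornified envelope that in normal skin is found in scattered granular cells and in hair follicles. Its intensity was 603 ± 60.7 in wild-type skin and 19047 ± 1905 in the knockout, a difference of 5.26, or 38.4-fold higher, and 33 genes measured on both arrays were higher still. The differences of *Flg2* and *Rptn* lay 11.67 apart on the log2 scale.

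*Flg*, the profilaggrin gene, was bright on both arrays. Its brightest probe read 204763 ± 20476 in wild-type skin and 163352 ± 16335 in the knockout, a difference of −0.04 after scaling, within the technical SD. The second probe read 157619 ± 15762 and 98661 ± 9866, a difference of −0.39. The dimmest read 67896 ± 6790 and 32872 ± 3287, a difference of −0.76. All 3 probes were thus lower or level in *Pnpla1*-/- skin after scaling, with none past 2-fold, and the size of the difference depended on the probe. The share of G and C bases was 35% in the brightest probe, 41.7% in the second and 68.3% in the dimmest, so base composition went with the size of the difference, and its part in the result was not tested. *Hrnr*, which encodes hornerin, read 18216 ± 1822 and 16158 ± 1616, a difference of 0.11, and turned to lower with no scaling and after centring on the spike-in RNA that Agilent adds to each sample.

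**Figure D1:**
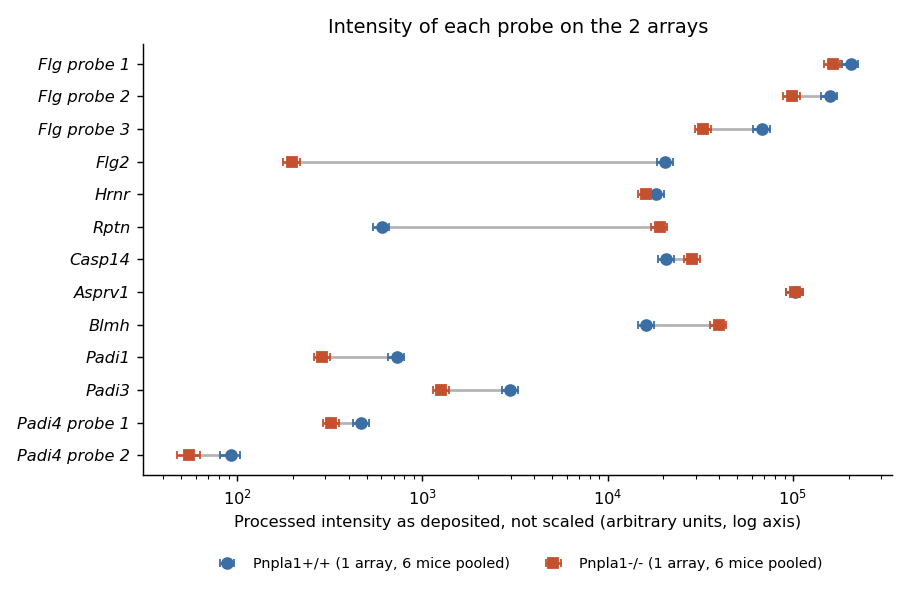
Deposited intensity (log axis, not scaled) of the 13 probes in *Pnpla1*+/+ (circles) and *Pnpla1*-/- (squares) skin, 1 array each, with the scanner software's error as bars. The longest lines belong to *Flg2*, from 20467 down to 198, and *Rptn*, from 603 up to 19047, while both points of *Asprv1* lie at about the same intensity.

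Of the 10 genes, 2 were at least 2-fold higher in *Pnpla1*-/- skin (*Rptn* and *Blmh*) and 2 at least 2-fold lower (*Flg2* and *Padi1*), against 6.70% higher and 3.04% lower among all 22373 genes with a difference. The other 6 stayed under 2-fold. The median over the 10 genes was 0.03, close to the median of all genes, 0.00. The members with large differences lay on both sides of it.

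The 3 proteases were all higher in *Pnpla1*-/- skin after scaling, with a median of 0.74. *Blmh* encodes bleomycin hydrolase, an aminopeptidase that acts late in the breakdown of filaggrin into free amino acids. It had the largest difference of the 3, at 16164 ± 1616 in wild-type skin and 39653 ± 3965 in the knockout, a difference of 1.58, or 2.98-fold. *Casp14*, on chromosome 10, encodes caspase-14, a protease of cornifying keratinocytes that cuts filaggrin repeats. Its intensity was 20706 ± 2071 in wild-type skin and 28506 ± 2851 in the knockout, a difference of 0.74 that was under 2-fold. *Asprv1*, on chromosome 6, encodes the aspartic protease SASPase, which cuts the linkers of profilaggrin. It read 102279 ± 10228 and 102071 ± 10207. Its difference of 0.28 turned to −0.00 with no scaling and −0.15 with spike-in centring.

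The 3 arginine deiminases were all lower in *Pnpla1*-/- skin, with a median of −0.95. *Padi1* and *Padi3* encode the enzymes found in the upper epidermis and, for *Padi3*, also in the hair follicle. *Padi1* read 728 ± 73.0 in wild-type skin and 288 ± 29.2 in the knockout, a difference of −1.05, or 2.08-fold lower, which passed 2-fold by less than the technical SD. *Padi3* read 2981 ± 298 and 1267 ± 127, a difference of −0.95, just under 2-fold. *Padi4* encodes an enzyme known mainly from neutrophils, where it citrullinates histones. It was dimmer, at 467 ± 46.9 and 323 ± 32.6 with its brighter probe, a difference of −0.25, and at 92.5 and 55.2 with the other probe, a difference of −0.46. The differences of *Padi1* and *Padi3* lay 0.10 apart, and whether any of the 3 genes differed from the others beyond the variation between mice could not be tested.

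**Figure D2:**
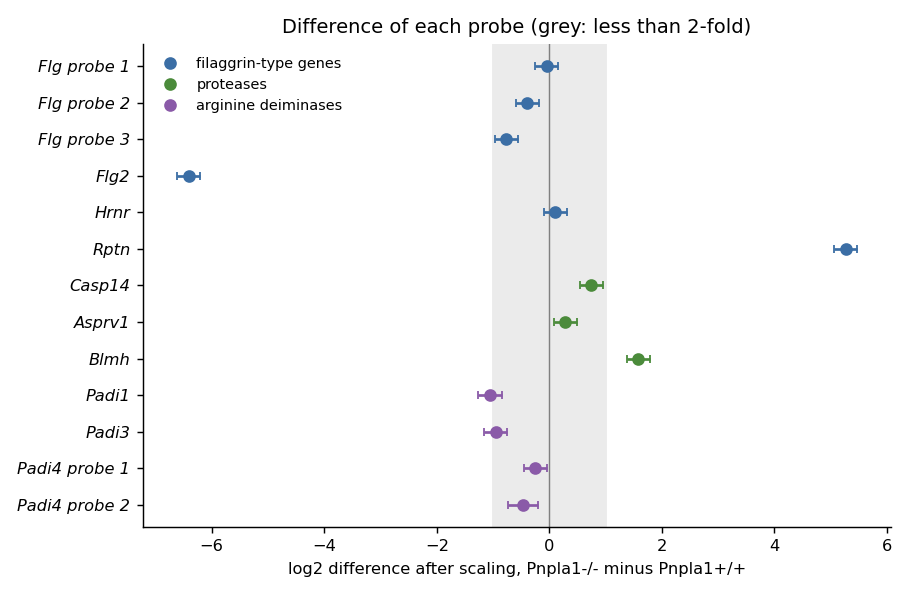
Log2 difference (*Pnpla1*-/- minus *Pnpla1*+/+, after scaling) of each of the 13 probes, coloured by group, with bars for the error of the scanner software carried over to the difference. Outside the grey band of less than 2-fold lie *Flg2* at −6.41, *Rptn* at 5.26, *Blmh* at 1.58 and *Padi1* at −1.05.

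The filaggrin-type genes and the arginine deiminases lie in clusters, so these members could be set beside their neighbours on mm9. *Casp14*, *Asprv1* and *Blmh* lie on chromosomes 10, 6 and 11 and were not set beside neighbours. On chromosome 3 the named probes ran in the order *Crnn*, *Flg2*, *Flg*, *Hrnr*, *Rptn*, *Tchh* and *Tchhl1*, and all 7 genes belong to the S100 fused-type family. *Rptn* was the only one of them that was 2-fold higher, and its probe lay 178 kb from that of *Flg2*. Between them lay *Flg*, at −0.04, −0.39 and −0.76 with its brightest, second and dimmest probe, and *Hrnr*, at 0.11. *Crnn*, which encodes cornulin, read 507 in wild-type skin and 246 in the knockout, a difference of −0.76 that passed 2-fold with no scaling and with spike-in centring (−1.20). *Tchh*, for trichohyalin of the inner root sheath, read 25471 and 15006, a difference of −0.48, and its neighbour *Tchhl1* read 1975 and 672, a difference of −1.27.

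On chromosome 4 the deiminase genes ran in the order *Padi6*, *Padi4*, *Padi3*, *Padi1* and *Padi2*. *Padi2*, the most widely expressed member, was higher, from 433 in *Pnpla1*+/+ to 629 in *Pnpla1*-/- skin, a difference of 0.82 that its other probe also gave. *Padi6*, known from the oocyte, was at background in both pools, at 6.13 and 5.46. The 3 deiminases between them were all below 0.

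**Figure D3:**
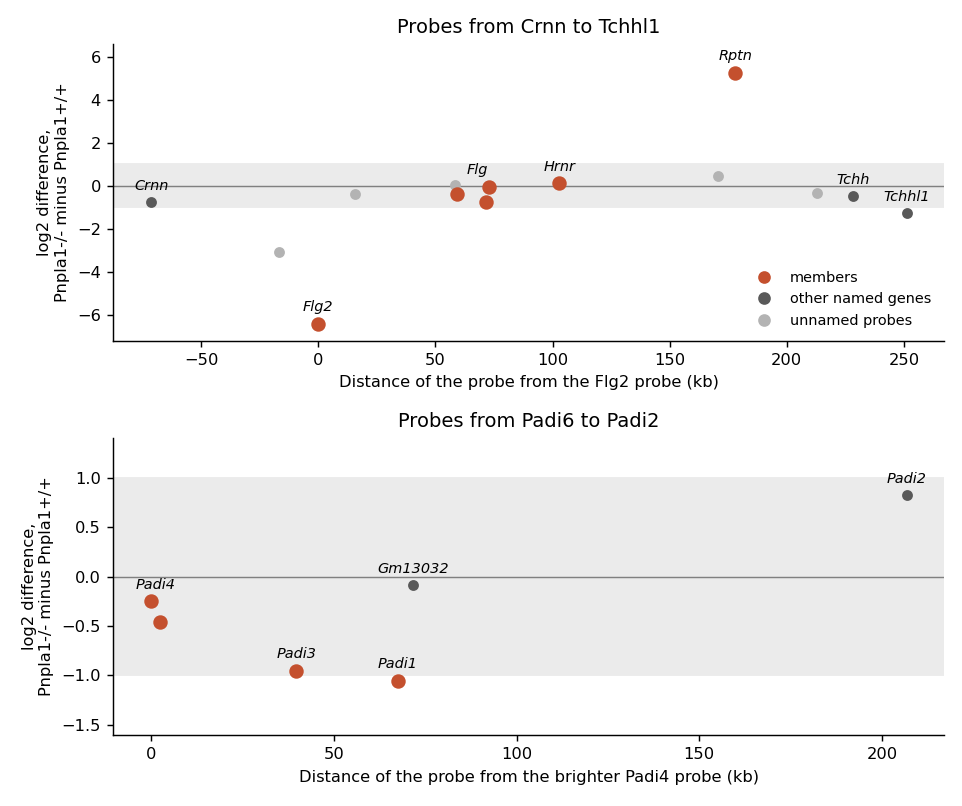
Log2 difference of each probe against its distance in kb from the *Flg2* probe (upper panel, from *Crnn* to *Tchhl1*) and from the brighter *Padi4* probe (lower panel, up to *Padi2*), with members, other named genes and unnamed probes in different shades. The vertical scales differ between panels, probes not well above background on either array, among them *Padi6*, are not drawn, and the grey bands mark less than 2-fold. In the upper panel *Flg2* is the lowest point and *Rptn* the highest, and *Padi2*, at 0.82, lies above the other deiminases.

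Other genes of the pathway were taken as fixed lists. Of 12 further proteases and inhibitors named for filaggrin processing or *stratum corneum* proteolysis, 10 had a difference, with a median of 0.21, 1 at least 2-fold higher and none lower. That gene was *Klk7*, for the chymotrypsin-like kallikrein of the *stratum corneum*, which read 9995 in wild-type skin and 17071 in the knockout, a difference of 1.05 that passed 2-fold by less than the technical SD. It fell under 2-fold with no scaling (0.77), with quantile normalization (0.98) and with spike-in centring (0.62), which left none of the list at least 2-fold higher. With spike-in centring *Pcsk6*, at −1.02, was at least 2-fold lower. The proprotein convertase gene *Furin* was at 0.69, the other convertase gene *Pcsk6* at −0.59, the cathepsin genes *Ctsh* and *Ctsl* at 0.78 and 0.14, the calpain gene *Capn1* at 0.45 and the trypsin-like kallikrein gene *Klk5* at −0.31. *St14*, for matriptase, was at −0.07, *Spink5*, for the kallikrein inhibitor LEKTI, at 0.28, and *Prss8*, for the channel-activating protease prostasin, at −0.36 with one probe and 0.14 with the other. *Ctsl* and *Spink5* turned to lower with no scaling and with spike-in centring, *Ctsl* also with quantile normalization, and *Prss8* turned to higher with normexp. *Cela2a* and *Spink6* stayed at background in both pools.

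Filaggrin is rich in histidine, which histidase turns into urocanic acid. *Hal*, the histidase gene, was lower, at 32075 in wild-type skin and 9994 in the knockout, a difference of −1.40, and −1.90 with its other probe. The other 3 genes of this list were *Uroc1*, for urocanase, the next enzyme of histidine breakdown, which was dim and higher, from 41.2 to 111 (a difference of 1.71, and 0.98 with normexp background correction), *Ggct*, for an enzyme that releases pyroglutamic acid, at −0.50, and *Oplah*, for the enzyme that opens it to glutamate, at −0.19.

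Among 9 genes of cornifying keratinocytes, 2 were at least 2-fold higher, 1 at least 2-fold lower, and the median was 0.10. After scaling, the bright markers of the suprabasal layers stayed under 2-fold. *Krt10* read 277989 and 262540, a difference of 0.20, *Krt1* 261232 and 230904, a difference of 0.10, and *Ivl* 4457 and 3711, a difference of 0.02, while *Lor* was at −0.30 and *Klf4*, for a transcription factor of late differentiation, at 0.26. *Krt10*, *Krt1* and *Ivl* turned to lower with no scaling, with quantile normalization and with spike-in centring, *Ivl* also with normexp (−0.04), and *Klf4* turned to lower with no scaling (−0.03) and with spike-in centring (−0.18). *Lor* stayed lower, at −0.58 with no scaling, −0.49 with quantile normalization, −0.73 with spike-in centring and −0.29 with normexp. The transglutaminase gene *Tgm1* was higher by 1.86. *Tgm3*, another transglutaminase gene, was at 2.12 with its brighter probe but at 0.03 with the other, which would leave 1 of the 9 genes at least 2-fold higher. *Krt2* was at −0.54 with one probe and 0.71 with the other, and *Krt77* was well above background in *Pnpla1*+/+ skin only, with 164 against 29.5, at least 4.58-fold lower (a bound of −2.20, and −0.94 with normexp background correction).

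The markers of other cells in the skin moved unevenly. All 7 inner root sheath markers were lower in *Pnpla1*-/- skin, 3 of them at least 2-fold, with a median of −0.90 and a summed scaled level of 88.2 in *Pnpla1*+/+ and 49.1 in *Pnpla1*-/- skin. The brightest, *Krt71*, read 84119 and 39193, and all 7 were well above background on both arrays. All 6 hair shaft markers were also lower, 4 at least 2-fold (3 with normexp, where *Krt32* went from −1.20 to −0.65), with a median of −1.26 and a summed scaled level of 19.2 and 10.7, and the brightest was *Krt35*, at 22088 and 7211. *Krt85* was at −0.18 with its brightest probe and at −1.34 and −0.45 with the other probes. The number of inner root sheath markers at least 2-fold lower was 6 with no scaling and with spike-in centring. Hair follicles also express some of the genes named above. Examples were *Padi3*, *Tchh* and *Tchhl1*, which were lower, and *Rptn*, which was 38.4-fold higher, and these are not a full list. The part of follicle RNA in these differences was not tested.

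All 10 neutrophil markers were above 0 after scaling, and 6 were at least 2-fold higher, with a median of 3.34, while *Padi4* was at −0.25. Their summed scaled level, 45.0 and 50.1, was set mainly by the bright *Csf3r* probe, which read 89901 and 76226, a difference of 0.04, and so does not show the differences of the dimmer markers. *Mpo* went from 32.3 to 541, a difference of 4.35 that was 1.87 with its other probe, and *Mmp8* went from 59.5 to 1210, a difference of 4.63. With normexp background correction *Mpo* was at 2.98, *Mmp8* at 3.69 and *Cxcr2* at 4.31, and the median of the 10 markers was 2.51. *Elane* was at 0.05 and *Camp* at 0.18. *Csf3r*, *Elane* and *Camp* turned to lower with no scaling and with spike-in centring (*Csf3r* also with quantile normalization and normexp), which left 7 and, with *Ly6g* at −0.01, 6 of the 10 markers above 0, while 6 stayed at least 2-fold higher under both. *Cxcr2*, at background in *Pnpla1*+/+ skin, read 16.0 and 1177, at least 59.8-fold higher (a bound of 5.90, and 5.47 with spike-in centring). For such a bound the dim array was given the probe's own signal or the weakest signal that counted there as well above background, whichever was higher. The 6 basal keratinocyte markers had a median of 0.06, with 1 at least 2-fold higher (*Krt14*, 1.35, and 0.91 with spike-in centring) and 1 at least 2-fold lower (*Krt15*, −1.67). The 5 suprabasal markers had a median of 0.02 and the 6 fibroblast markers of −0.07, none of them past 2-fold.

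**Figure D4:**
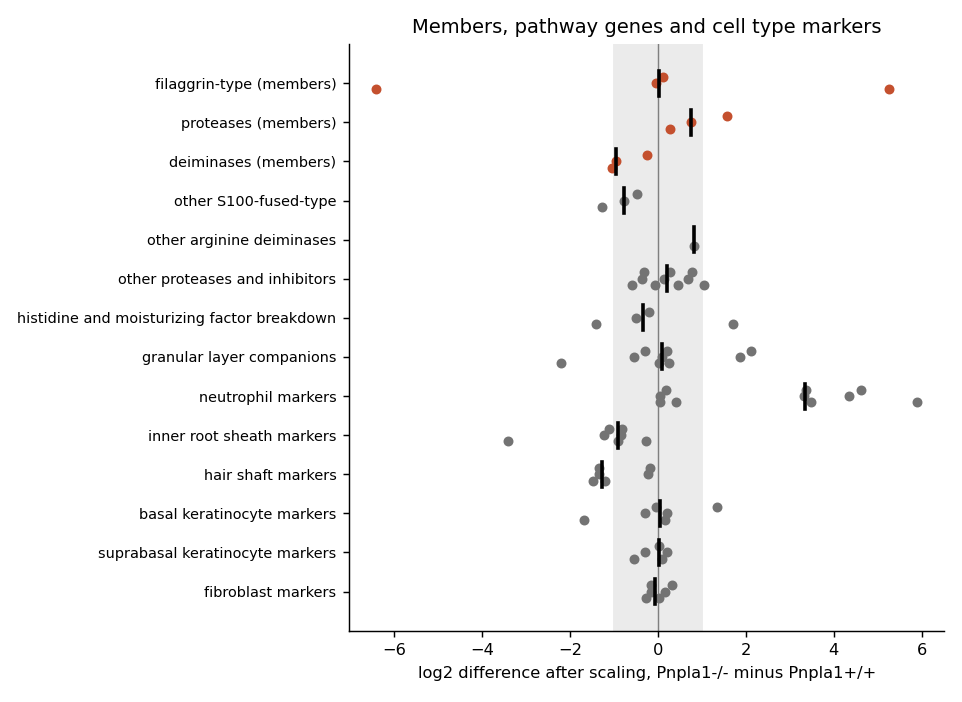
Log2 difference of each gene (points) and the median (bar) for the members, in 3 rows at the top, and for the other pathway genes and cell type markers. The grey band marks less than 2-fold, the values of *Krt77* and *Cxcr2* are bounds, and the filaggrin-type row spans the widest range while its median lies at 0.03.

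Since neighbouring genes of one family differed this much, the sequence before each gene start is shown for the 4 filaggrin-type genes. RefSeq, on GRCm38.p6, which is not the build of the probes, gave 1 window for each of the 10 members, from 250 bases before to 50 bases after the start. The stretches printed are the 150 bases before the start, on the + strand, at chr3:93197123-93197272 (*Flg2*), chr3:93273396-93273545 (*Flg*), chr3:93319599-93319748 (*Hrnr*) and chr3:93393549-93393698 (*Rptn*). Capitals mark TATAAA, the core of a TATA box, and TGANTCA, searched on both strands, on which it reads the same and whose forms with C or G in the middle are the usual site of AP-1 factors.
Flg2: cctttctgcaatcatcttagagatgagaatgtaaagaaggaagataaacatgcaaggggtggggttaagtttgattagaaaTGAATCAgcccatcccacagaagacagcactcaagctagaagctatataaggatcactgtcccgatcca
Flg: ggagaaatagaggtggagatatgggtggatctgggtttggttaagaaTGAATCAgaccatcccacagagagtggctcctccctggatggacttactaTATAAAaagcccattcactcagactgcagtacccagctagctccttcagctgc
Hrnr: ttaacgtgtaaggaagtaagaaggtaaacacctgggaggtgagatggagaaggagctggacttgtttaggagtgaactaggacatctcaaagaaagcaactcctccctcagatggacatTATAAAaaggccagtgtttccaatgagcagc
Rptn: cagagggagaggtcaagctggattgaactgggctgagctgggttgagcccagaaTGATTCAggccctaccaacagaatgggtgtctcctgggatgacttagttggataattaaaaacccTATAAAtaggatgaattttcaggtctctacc

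TGANTCA occurred in 5 of the 10 member windows, those of *Flg2*, *Flg*, *Rptn*, *Padi4* and *Blmh*, and in 7.81% of all 32851 windows. In *Flg2*, *Flg* and *Rptn* the match was TGAATCA on one strand or the other, which 2.81% of all windows held, and it started 69, 103 and 96 bases before the start. The *Hrnr* window held none. TATAAA was in the windows of *Flg*, *Hrnr*, *Rptn* and *Padi4*, and in 13.6% of all windows, and in *Hrnr*, *Rptn* and *Padi4* it began 31 bases before the start. Only this exact string was counted, so close variants, such as tatataag in the *Flg2* stretch, were left out. *Flg2* and *Flg* shared a run of 12 bases, ccatcccacaga, which 6 windows in all contained. *Flg2* and *Hrnr* also shared a run of 12 bases, caccctgcaagc, likewise in 6 windows. Of the 10 genes, those with the lowest and the highest difference both carried TGAATCA, and a match is a description of the letters only.

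**Figure D5:**
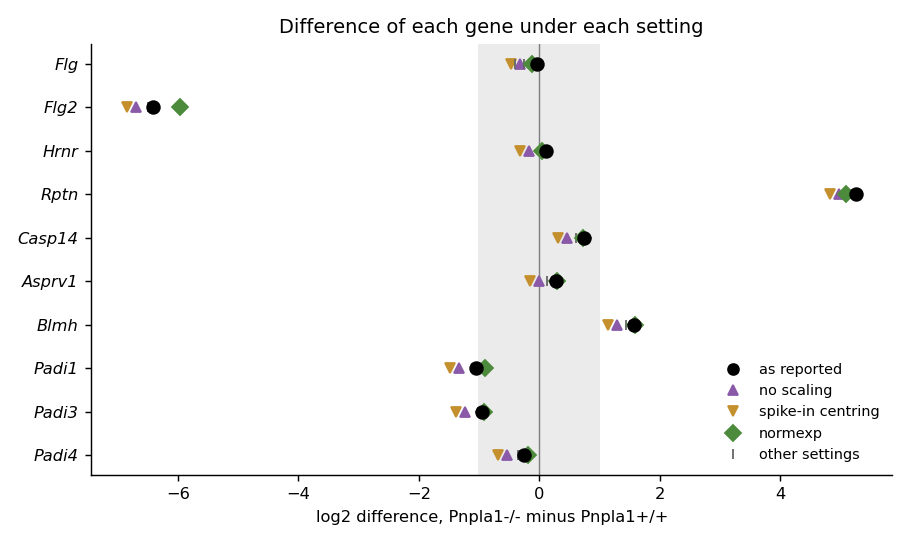
Log2 difference of each of the 10 genes as reported (black) and under 11 other settings of scaling, background, probe choice and filters. *Flg2* stayed between −6.84 and −5.96 and *Rptn* between 4.83 and 5.26, while *Hrnr* and *Asprv1* crossed 0 with no scaling and with spike-in centring.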

How the data were processed

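Per the labels and the methods, the authors hybridized pooled skin RNA to Agilent 4x44K v2 arrays and extracted the images with Feature Extraction 11.5.1.1. The deposited intensity of each spot is background-subtracted and detrended, and is not scaled between arrays. The authors also deposited a table that holds the ratio of each intensity to 1 factor per array, used here as an alternative.

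The 43020 non-control spots were scaled to the 75th percentile of their array and taken to log2 (pandas 2.3.3 and numpy 2.4.6 under Python 3.11.15), leaving out outlier-flagged spots (138 and 82). Repeated spots were averaged, and the brightest probe stood for a gene. Where only 1 array was well above background, the difference is a bound, with the dim side set to the probe's own signal or that array's lowest signal well above background, whichever was higher. Of 30132 genes, 20679 had a difference and 1694 a bound. Genes were counted at 2-fold, with no test. Names were updated through RefSeq for 31459 of 39429 probes. The other 7970 kept the name or identifier of the scanner files and were counted as genes under it. The computation was tested on simulated data. Members, lists and alternatives were chosen with earlier results of these data known. The text names every member with all its probes and otherwise only genes of these lists, with marker lists given by counts, medians and examples chosen after their values were seen. Alternatives covered the scaling, background correction, choice of probes, filters and threshold. Those for at least 2 gene lists, the neutrophil markers and the other proteases and inhibitors, were chosen after seeing the data. Those for the remaining pathway and marker lists were not recorded as planned. Probes are placed on mm9 as in the scanner files, and promoters on GRCm38.p6.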

Additional observations from a re-analysis of the deposited data

How the results depend on the processing

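With 1 array per genotype, variation between mice was not measured, no replicate could be left out, and slide could not be a term. No paired analysis was possible because each genotype had 1 array. Of the 10 genes, 8 kept their direction under all 11 alternatives, and *Hrnr* and *Asprv1* did not, as given above. Several alternatives could change little by design. All 13 probes were well above background and unflagged, so the settings for dim probes and flagged spots could not change any of the 10 genes. Averaging probes could change only *Flg* and *Padi4*, and the authors' deposited ratios nearly repeated the main scaling. *Flg2*, *Rptn* and *Blmh* stayed past 2-fold under all 11, with *Blmh* between 1.14 and 1.59, while *Padi1* went to −0.91 with normexp background correction in limma 3.58.1 (offset 50), which left 1 member at least 2-fold lower, and *Padi3* passed 2-fold under 3 of them. Averaging its probes put *Flg* at −0.40. Its brightest probe alone was at −0.25 with quantile normalization, −0.33 with no scaling and −0.48 with spike-in centring. These values lay beyond the technical SD, which was taken within each array. They also lay beyond the scanner software's error of 0.20, the −0.25 only by little. Whether *Flg* was level or lower thus depended on the scaling.

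The median of the filaggrin-type genes, 0.03 as reported, was −0.25 with no scaling, −0.12 with quantile normalization, −0.40 with spike-in centring and −0.15 with the mean over all probes. The median of the processing enzymes, 0.01 as reported, was −0.27, −0.084 and −0.42 under the first 3 of these. At 3-fold, 1 member was higher and 1 lower. Over all genes, 6.70% (1499) passed 2-fold upward and 3.04% (681) downward, against 4.47% (998) and 6.38% (1424) with no scaling, 3.73% (827) and 9.84% (2182) with spike-in centring and 4.34% (960) and 1.45% (321) with normexp. With no filter on dim probes, 10.1% (3041) and 3.67% of 30132 genes passed. At 1.5-fold the shares were 13.8% (3092) and 9.35% (2092), and at 3-fold 3.06% (684) and 1.02% (228). The share of higher genes among those past 2-fold was 68.8%, and 41.2% with no scaling, 27.5% with spike-in centring, 58.8% with quantile normalization. On the knockout array the 8 spike-in probes lay 0.43 higher. The median of all genes shifted by −0.28 with no scaling, −0.44 with spike-in centring and 0.10 with no filter, and each gene moved with it under the first 2 by construction. Among the lists, the medians of the other proteases, the cornifying keratinocyte genes and the basal and suprabasal markers turned below 0 with no scaling (−0.07, −0.18, −0.23 and −0.26) and with spike-in centring (−0.22, −0.33, −0.38 and −0.41). With quantile normalization the last 3 were at −0.036, −0.031 and −0.10, and with normexp the suprabasal markers were at −0.038.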

Other observations

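The probe next to that of *Flg2*, 17.0 kb before it on chromosome 3 of mm9 (from 93007687 to 93007746), has no gene name in the files. No gene models of mm9 were used, so whether this probe lies within *Flg2* was not determined. The unnamed probe read 1909 in wild-type skin and 185 in the knockout, a log2 difference of −3.08, the second lowest in the interval from *Crnn* to *Tchhl1*. An unnamed probe 15.7 kb after the *Flg2* probe gave −0.38, and another 0.749 kb before the first *Flg* probe gave 0.02. These probes were singled out after their values were seen.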
